A study of Mus musculus with 6 samples.

Results

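The genes described here are the mouse splicing factors and heterogeneous nuclear ribonucleoproteins (hnRNPs) whose symbols begin with Srsf, Tra2, Hnrnp, Snrp, Sf3a, Sf3b, U2af, Prpf or Lsm. The symbol rule took 86 of the 52249 genes in the deposited table. They were split into an SR class of 13 genes (Srsf and Tra2), an hnRNP class of 22 genes and an snRNP class of 51 genes, the last holding the Snrp, Sf3, U2af, Prpf and Lsm families. Their transcripts were counted by 3′ mRNA sequencing, which reads near the polyadenylated end, in 6 libraries of intestinal organoids from Apc-knockout mice, epithelial cultures grown from the gut lining. All 6 libraries were thus Apc-knockout, and Apc is the tumour suppressor whose loss activates WNT signalling. The 3 control libraries carried that knockout alone, and the other 3 also carried IGF2BP3 overexpression (OE), IGF2BP3 being an RNA-binding protein. The labels do not give the vector, promoter or clone behind the overexpression, the age of the donor mice, or whether replicates were separate cultures, so p-values measure only the spread between these samples.

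Introns are removed by the spliceosome, which is assembled from small nuclear RNAs wrapped in rings of Sm or LSm proteins and joined by U1, U2, U4, U5 and U6 particle proteins. SR proteins bind exon sequences through RNA recognition motifs and use their arginine-serine tails to recruit spliceosome components, whereas hnRNPs coat the pre-mRNA and often act against exon inclusion. Intestinal epithelium renews rapidly, and splicing factor genes are expressed throughout its proliferating cells.

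Control libraries held 2180087 to 2228062 counts and OE-labelled libraries 2310216 to 2519886, and 3 counts corresponded to 1.18 to 1.41 units of CPM, the count scaled to library size. Igf2bp3 itself was counted 1, 0 and 0 times in control replicates 1 to 3 and 1, 0 and 0 times in OE-labelled replicates 1 to 3, under the 3-count floor in all 6, so its transcript gave no check of the label and the second group is called OE-labelled. Of 10 epithelial markers, 9 passed the count filter, with 5 higher and 1 lower in OE-labelled libraries and Cdx1 at 0 throughout; their summed level was 4766 to 5073 CPM in control and 6172 to 6987 CPM in OE-labelled libraries. None of the 8 fibroblast and 3 endothelial markers passed the filter: their sums were at most 1.41 and 0.461 CPM, and 6 and 1 of them were at 0. Of 6 immune markers, Cd3e, Cd79a and Lyz2 were at 0, while the sum was 41.3 to 50.7 CPM in control and 58.8 to 75.8 CPM in OE-labelled libraries, with Csf1r higher (log2 fold change 0.68, edgeR adjusted p = 0.0061); the part of these marker differences in the results was not tested. In bulk RNA, fewer cells of a type and less RNA per cell cannot be told apart. The library names form one series per group, so batch and group cannot be told apart in any comparison.

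Of the 86 genes, 79 passed the count filter. In OE-labelled against control libraries, 16 of the 79 rose (20.3%, against 16.5% of all 10687 genes tested) and 14 fell (17.7%, against 12.7%), each at an adjusted p below 0.05 in edgeR's quasi-likelihood test. Together 38.0% of the splicing factors were called, beside 29.2% of all genes tested. The splicing factors were also more abundant, at a median of 89.8 CPM against 30.3 CPM. Their control libraries varied less, at a median SD of 7.45% of the mean against 10.5%. The part of these differences in the called share was not tested. For 38 of the 79 genes (48.1%) the lowest library of one group was above the highest of the other, beside 45.7% of all genes tested, a share near the background. The median log2 fold change was -0.08 for the 79 genes and 0.04 for all genes tested, and the median absolute change was 0.31 and 0.35. The counts changed when 1 library was left out, which also made a group smaller. The part of the smaller group in these changes was not tested. Without control replicate 1, 2 or 3 the splicing factors that rose numbered 7, 5 and 6, and without OE-labelled replicate 2 they numbered 8. Without OE-labelled replicate 1 those that fell numbered 23. Counts over all genes tested moved too, from 1765 that rose and 1353 that fell. Those that rose numbered 1097, 1079 and 1033 without control replicates 1, 2 and 3, and 1227 without OE-labelled replicate 2. Those that fell numbered 1731 without OE-labelled replicate 1. When only protein-coding genes entered the fit, 11 splicing factors were higher and 16 lower, beside 1453 and 1568 of all genes in that fit. Without mitochondrial genes and an abundant ribosomal RNA gene the split was 12 and 16, beside 1491 and 1622 of all genes.

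Counts were also taken by class. Of 12 SR genes tested, 1 rose, 2 fell and 9 were not called, with a median log2 fold change of -0.09. Of 20 hnRNP genes tested, 3 rose, 6 fell and 11 were not called, with a median of -0.33 and with 15 of the 20 below 0. Of 47 snRNP-class genes tested, 12 rose, 6 fell and 29 were not called, with a median of 0.02, whereas DESeq2 called 4 of them higher and 6 lower. The difference between the classes was not tested, because the genes of a class are not replicates. In the snRNP class the count that rose was 4, 2, 3 and 5 without control replicates 1, 2 and 3 and OE-labelled replicate 2, and 11 fell without OE-labelled replicate 1. In the hnRNP class 10 fell without OE-labelled replicate 1 and 9 without OE-labelled replicate 3. The SR class had no gene that fell without control replicate 3 and 1 without control replicates 1 or 2 or OE-labelled replicate 2. Over all genes tested, those that fell numbered 796, 758 and 715 without control replicates 1, 2 and 3. Without OE-labelled replicates 1, 2 and 3 they numbered 1731, 1072 and 1573.

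**Figure D1:**
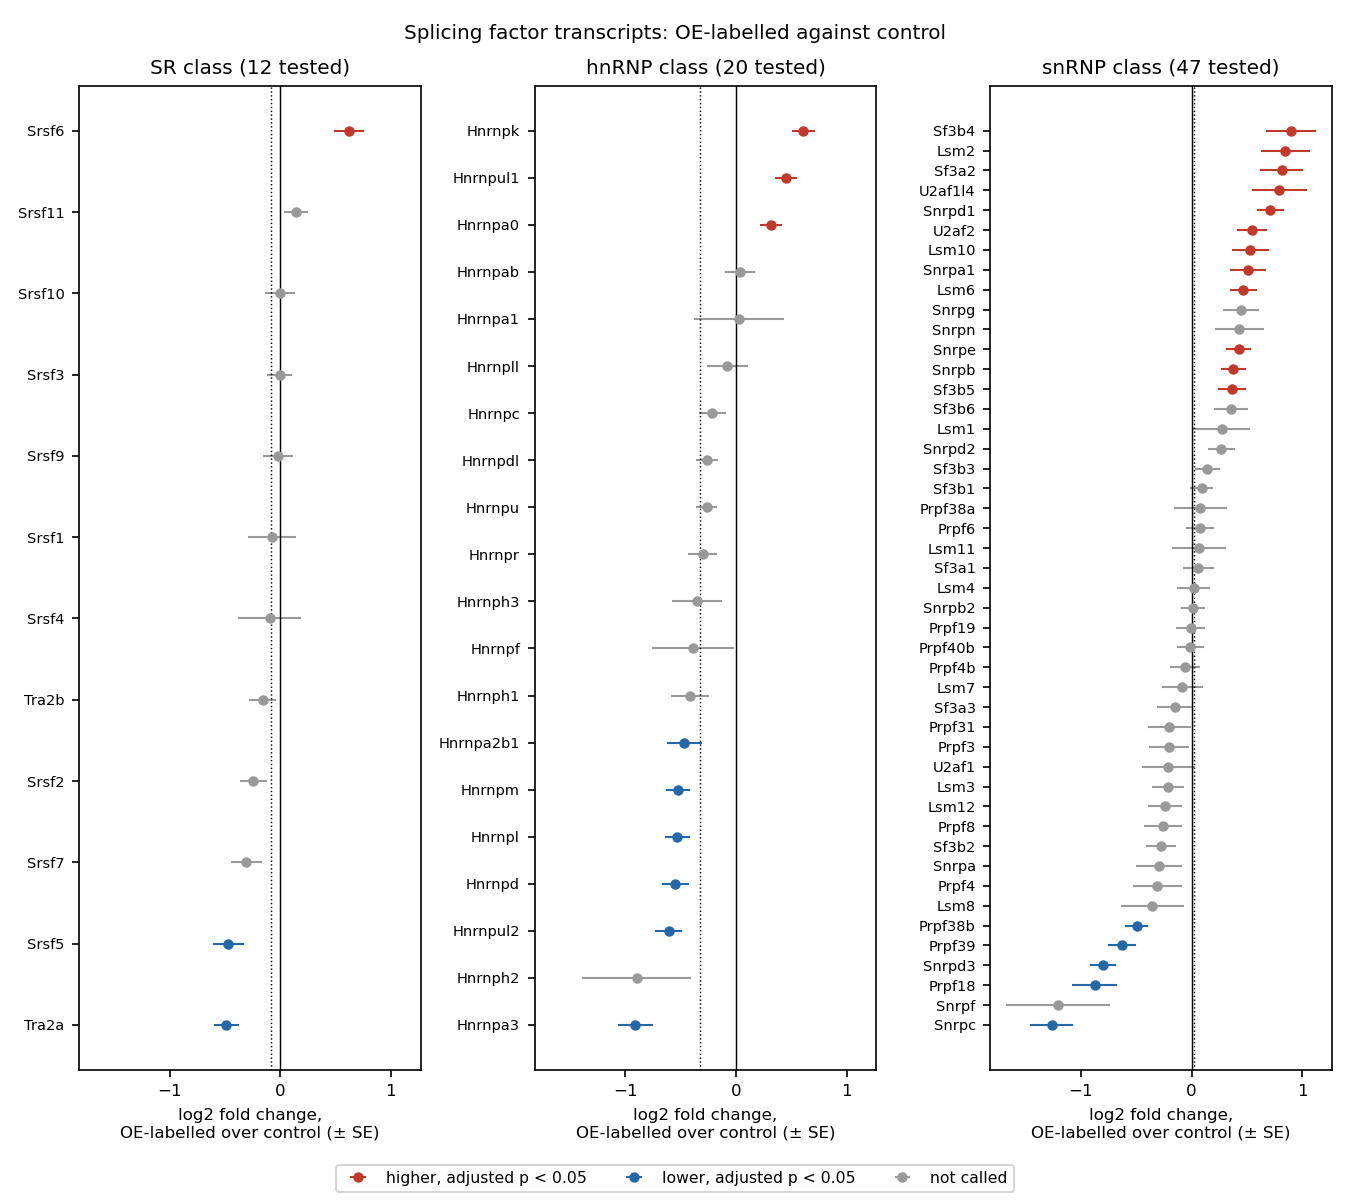
Log2 fold change of each tested splicing factor, OE-labelled over control (x axis, points with standard errors), in panels for the SR, hnRNP and snRNP classes; red points rose and blue points fell at an edgeR adjusted p below 0.05, and dotted lines mark class medians over all tested genes, 1 of which is not drawn (-0.09, -0.33 and 0.02). Most hnRNP points lie to the left of 0, while the snRNP class spreads to both sides, from -1.26 for Snrpc to 0.90 for Sf3b4.

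GC content moved with the fold changes. Across the 79 genes the log2 fold change had a Spearman rho of 0.32 with transcript GC content, and across the 10679 tested genes with a GC value rho was 0.37; these are correlations across genes of the same libraries. Genes that rose had a median GC content of 49.2%, genes that fell 44.0% and genes not called 46.4%. After a per-library offset for GC content, 9 of the 16 higher and 7 of the 14 lower calls remained. In that fit 11 of the 79 genes were higher and 8 lower, beside 1360 and 1096 of the 10687 genes tested. The genes that remained higher were Srsf6, Hnrnpk, Snrpd1, Snrpe, Snrpa1, Sf3b4, Sf3b5, Lsm2 and Lsm6. The genes that remained lower were Hnrnpa3, Hnrnpul2, Hnrnpm, Hnrnpl, Snrpc, Snrpd3 and Prpf18. The class medians with the offset were 0.04 for SR, -0.14 for hnRNP and 0.01 for snRNP genes, so the sign of the SR median turned and the hnRNP median shrank by more than 1.5 times. How far GC content accounts for the calls was not tested.

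**Figure D2:**
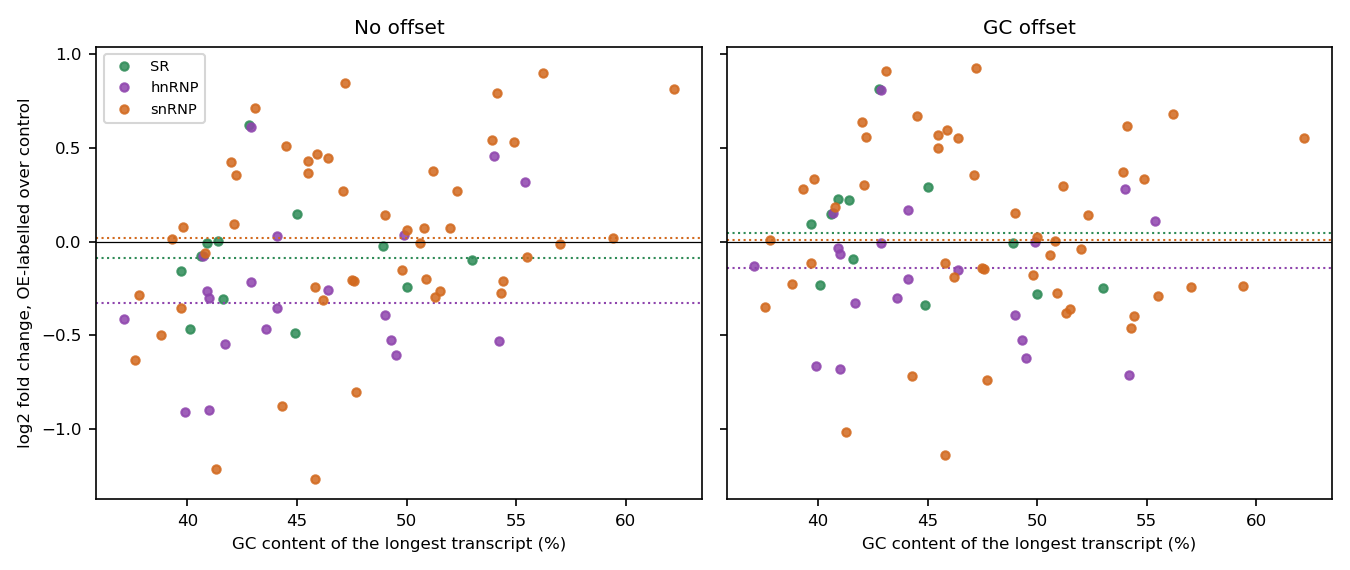
Log2 fold change (y axis, OE-labelled over control) against GC content of the longest transcript (x axis, percent) for the 79 tested genes, coloured by class, without and with a per-library GC offset; dotted lines are class medians. The upward slope seen without the offset (rho 0.32) is reduced on the right, and the hnRNP median moves from -0.33 to -0.14.

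Among the SR genes, Srsf6 was the member that rose. SRSF6 is an SR protein that binds exonic enhancers and regulates alternative exons, and its gene lies at chr2:162931528-162937121 on the plus strand of GRCm38. Srsf6 stood at 74.2, 64.3 and 54.4 CPM in control replicates 1 to 3 and at 94.4, 95.6 and 107 CPM in OE-labelled replicates 1 to 3, and further values are listed in this order. All 3 OE-labelled libraries were above all control libraries. The increase was 1.54-fold (log2 0.62, SE 0.14, edgeR adjusted p = 0.0052), it was called in every alternative run, and with the GC offset it was 0.81 (edgeR adjusted p = 0.00134, range over the alternatives 0.000224 to 0.042).

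Tra2a and Srsf5 fell. TRA2A is one of the pair of Transformer-2 proteins, SR-like activators of exon inclusion, and its transcript was at 209, 206 and 222 CPM in control libraries against 149, 135 and 171 CPM in OE-labelled ones. The ranges did not overlap, and the log2 change was -0.49 (SE 0.12, edgeR adjusted p = 0.00777). Srsf5, which encodes another SR protein that binds exonic enhancers, was at 187, 199.9 and 199 CPM in control libraries against 122, 126 and 176 CPM in OE-labelled ones. OE-labelled replicate 3 was closest to control, and the change was -0.47 (SE 0.14, edgeR adjusted p = 0.0249). The Tra2a call was lost without control replicate 3 (edgeR adjusted p = 0.0517) and with the GC offset (0.0543). The Srsf5 call was lost without control replicates 1, 2 or 3 or OE-labelled replicate 2 (edgeR adjusted p = 0.0675, 0.0949, 0.0948 and 0.0684), and with the GC offset it was -0.23 (0.202). Without OE-labelled replicate 1 or 3 Srsf5 was still called (edgeR adjusted p = 0.0111 and 0.000549).

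The other SR genes were not called. Srsf11, the most abundant SR transcript, was at 380.2, 386 and 393 CPM in control libraries against 438, 371 and 473 CPM in OE-labelled ones (log2 0.15, edgeR adjusted p = 0.333). Srsf2, which encodes SC35, a marker protein of nuclear speckles, was at 274, 259.9 and 286 against 192, 261 and 240.1 CPM (-0.24, edgeR adjusted p = 0.154). Srsf3, the smallest of the classical SR proteins and a factor in mRNA export, was at 133, 117 and 137 against 133, 125 and 127 CPM. Its groups interleaved, and the change was -0.01 (edgeR adjusted p = 0.972). Srsf1, the founding SR protein known as SF2/ASF, was at 97.7, 119 and 129 against 65.2, 126 and 136 CPM. Only OE-labelled replicate 1 was low, and the change was -0.08 (edgeR adjusted p = 0.82). Tra2b, the paralogue of Tra2a, had a change of -0.16 (edgeR adjusted p = 0.361); both Tra2 genes had the same sign in this fit, but Tra2b turned to 0.10 with the GC offset. Srsf7 had -0.31 (edgeR adjusted p = 0.115) and was called lower without OE-labelled replicate 3 (-0.46, edgeR adjusted p = 0.0116), while Srsf4, Srsf9 and Srsf10 lay between -0.10 and 0.00. Srsf12 had 0 counts in all 6 libraries.

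Among the hnRNP genes, Hnrnpk, Hnrnpul1 and Hnrnpa0 rose. HNRNPK binds C-rich RNA and DNA through KH domains, and its transcript, at chr13:58391142-58403343 on the minus strand, was at 365, 331 and 338 CPM in control libraries against 514, 578 and 485 CPM in OE-labelled ones. Every OE-labelled value lay above every control value, and the rise was 1.53-fold (log2 0.61, SE 0.10, edgeR adjusted p = 0.0012), called in every alternative and 0.81 with the GC offset. Hnrnpk has 2 near-identical copies among other annotated genes and overlaps Mir7-1 on its own strand and Rmi1 on the other. Hnrnpul1, which encodes an hnRNP U-like protein, rose from 159, 162 and 159 CPM to 229.7, 212 and 215 CPM (log2 0.46, SE 0.10, edgeR adjusted p = 0.00548), and with the GC offset was 0.28 (0.0838). Hnrnpa0, an AU-rich element binder of the A/B group, had 326, 311 and 362 CPM in control libraries against 398, 441 and 406 CPM in OE-labelled ones (log2 0.32, SE 0.10, edgeR adjusted p = 0.0344). The Hnrnpa0 call was lost in 12 of 19 alternatives, among them those without control replicates 1, 2 or 3 or OE-labelled replicate 2 (edgeR adjusted p = 0.138, 0.173, 0.063 and 0.146).

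The hnRNP genes that fell were Hnrnpa3, Hnrnpul2, Hnrnpd, Hnrnpl, Hnrnpm and Hnrnpa2b1. Hnrnpa3, a close relative of the A2 protein that carries mRNA to the cytoplasm, had the lowest fold change of the class: 100, 143 and 113 CPM in control against 53.1, 66.9 and 69.8 CPM in OE-labelled libraries. No OE-labelled library reached the lowest control, and the transcript was 1.88-fold lower (log2 -0.91, SE 0.16, edgeR adjusted p = 0.00125). Hnrnpa3 has 31 near-identical copies among annotated genes, so how its reads were shared with them is uncertain. Hnrnpul2, for a further hnRNP U-like protein, was at 131, 141 and 126 against 76.6, 86.5 and 98.1 CPM (-0.61, SE 0.12, edgeR adjusted p = 0.00344). Hnrnpm, a regulator of alternative exons in epithelial and mesenchymal cells, was at 334, 294 and 323 against 246, 207 and 208 CPM (-0.52, SE 0.11, edgeR adjusted p = 0.00401). It overlaps March2 on the same strand. Hnrnpl, which binds CA repeats, was at 144, 127 and 134 against 98.5, 93.6 and 87.9 CPM (-0.53, SE 0.11, edgeR adjusted p = 0.00425). These 4 transcripts had non-overlapping groups and were called lower in every alternative run.

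Hnrnpd and Hnrnpa2b1 were less stable across settings. Hnrnpd encodes AUF1, which binds AU-rich elements of unstable mRNAs, and was at 121, 137 and 119.8 CPM in control libraries against 83.9, 94.8 and 79.5 CPM in OE-labelled ones (-0.55, SE 0.12, edgeR adjusted p = 0.00518). With the GC offset it was -0.33 (edgeR adjusted p = 0.0883). Hnrnpa2b1, an abundant hnRNP of the core particle, was at 266, 275 and 262 CPM in control libraries against a wide 139, 203 and 241 CPM in OE-labelled ones. All OE-labelled values were below control, replicate 1 by the most (-0.47, SE 0.16, edgeR adjusted p = 0.0451). That call was lost in 8 of 19 alternatives, including without control replicates 1, 2 or 3 or OE-labelled replicate 2 (edgeR adjusted p = 0.119, 0.139, 0.116 and 0.0636).

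Of the hnRNP genes without a call, Hnrnpc, whose protein forms the tetramer that measures RNA length in the core particle, was at 423, 432 and 435 against 401, 411 and 299 CPM. Its ranges did not overlap, yet OE-labelled replicate 3 alone was far below the others (-0.21, edgeR adjusted p = 0.208, -0.33 with edgeR adjusted p = 0.0269 without OE-labelled replicate 1, and -0.08 with 0.516 without OE-labelled replicate 3). Hnrnpu, the scaffold attachment factor, had -0.26 (edgeR adjusted p = 0.0579) and was called lower without OE-labelled replicate 1 or 3 (edgeR adjusted p = 0.023 and 0.0282). The Hnrnpf and Hnrnph genes encode proteins that bind G-runs, and their 4 tested members all had negative values with a median of -0.40 and no call by edgeR or DESeq2 (1 lower at an unadjusted edgeR p below 0.05). Their median was -0.20 without OE-labelled replicate 1, in which all 4 were lowest of the OE-labelled libraries, and -0.74 without OE-labelled replicate 3. Hnrnph1 and Hnrnph2 were called lower without OE-labelled replicate 3 (edgeR adjusted p = 0.019 and 0.0264). Hnrnpdl and Hnrnpr were called lower without OE-labelled replicate 1 (edgeR adjusted p = 0.0171 and 0.0103). Hnrnpab and Hnrnpll lay at 0.04 and -0.08. The pseudogenes Hnrnpa1l2-ps and Hnrnpa1l2-ps2 had 0 counts in all 6 libraries.

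Several hnRNP and SR transcripts differed between the OE-labelled libraries more than between the groups. Hnrnpa1, the best studied hnRNP and an antagonist of SRSF1 at exons, was at 53.5, 55.8 and 71.9 CPM in control libraries against 19.9, 51.1 and 115 CPM in OE-labelled ones. OE-labelled replicate 1 was the lowest of all 6 and OE-labelled replicate 3 the highest, so the fitted change was 0.03 with an SE of 0.41 (edgeR adjusted p = 0.967). Hnrnpf was likewise lowest in OE-labelled replicate 1, with 20.7, 25.3 and 33.2 CPM in control libraries against 7.29, 20.8 and 32.6 CPM in OE-labelled ones. Of the 79 genes, 25 (31.6%) had an OE-labelled library at least 1.5 times another, beside 33.6% of all genes tested. Among control libraries 5 of the 79 did (6.33%), beside 18.2% of all genes tested, whose median level was lower (30.3 against 89.8 CPM). Of the 25, 15 (60.0%) were lowest in OE-labelled replicate 1, beside 51.9% of the 3589 genes of that spread. The median deviation from the control mean in OE-labelled replicates 1, 2 and 3 was -0.48, -0.27 and -0.14 log2 units for the hnRNP class. For the SR class it was -0.34, -0.06 and 0.00, and for all genes tested 0.01, 0.06 and 0.08. Of these libraries, replicate 1 had the strongest relation of deviation with GC content across the splicing factors, at a rho of 0.38 against 0.25 and 0.19, and the order was the same over all genes tested, at 0.37, 0.35 and 0.27. Without OE-labelled replicate 1 the hnRNP median was -0.30, close to the value over all libraries. With each of the 6 libraries left out in turn it ran from -0.48 to -0.30, and the SR median from -0.25 to -0.05.

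**Figure D3:**
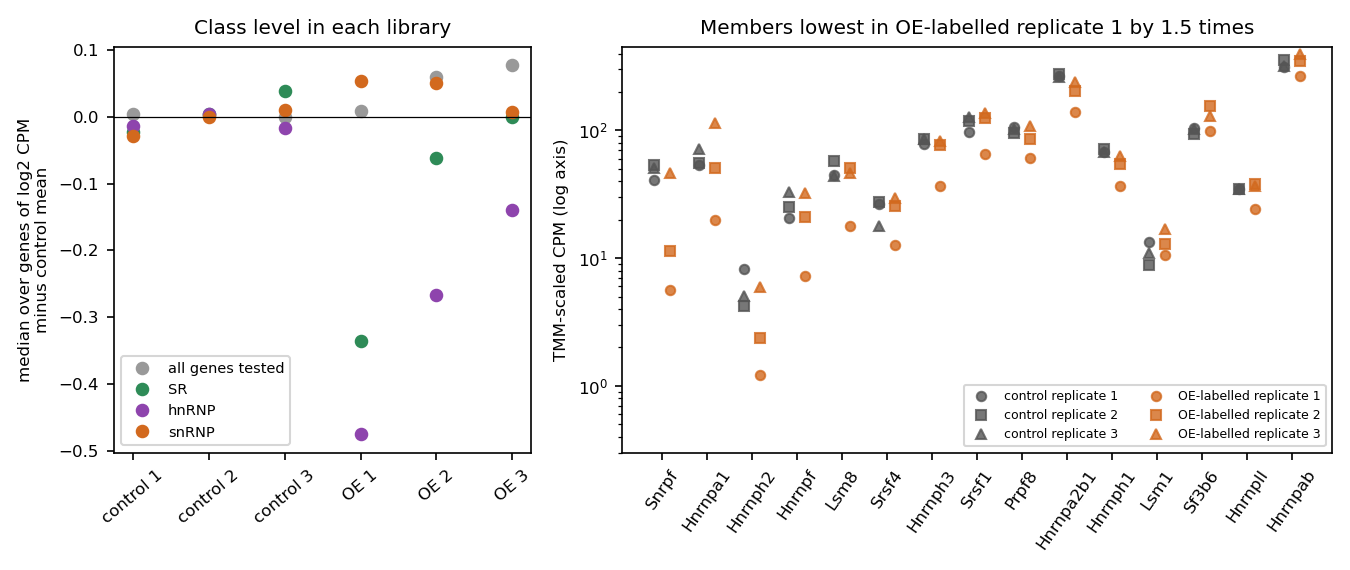
Left, the median over genes of log2 CPM minus the control mean (y axis) for each class and for all genes tested in each library (x axis); right, TMM-scaled CPM (log axis) in each library for the 15 genes lowest in OE-labelled replicate 1 with at least a 1.5-fold spread. The hnRNP points lie at -0.48, -0.27 and -0.14 in OE-labelled replicates 1 to 3 while all genes stay between 0.01 and 0.08.

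Summed over its genes, the hnRNP class was at 3734 ± 9.63 CPM in control libraries against 3480 ± 204 CPM in OE-labelled ones as mean and SD of 3 libraries, and the ranges did not overlap (3723 to 3740 against 3249 to 3637). The sum over all 52249 genes, tested or not, did not overlap either on this TMM-scaled measure, at 1022000 to 1027000 CPM against 976700 to 1002000 CPM. The SR class was at 1795 ± 44.9 CPM and 1671 ± 155 CPM (SD, n = 3), with overlapping ranges. The snRNP class was at 4256 ± 27.1 CPM and 4153 ± 169 CPM (SD, n = 3), also overlapping.

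In the snRNP class, the Sm genes encode the 7 proteins of the ring around U1, U2, U4 and U5 snRNA. Snrpd1, Snrpe and Snrpb rose, Snrpd3 fell, and Snrpg, Snrpd2 and Snrpf were not called, so the subunits of the ring did not move one way. Snrpd1 was at 93.1, 91.5 and 103 CPM in control libraries against 180.3, 150.2 and 141 CPM in OE-labelled ones. All OE-labelled values lay above control, and the rise was 1.64-fold (log2 0.71, SE 0.12, edgeR adjusted p = 0.0014), called in every alternative. Snrpd3, at chr10:75517551-75537381 on the plus strand and overlapped by Gucd1 on the other, was at 177, 147 and 153 against 94.4, 90.1 and 89.2 CPM. The groups were far apart, and Snrpd3 was 1.75-fold lower (log2 -0.80, SE 0.12, edgeR adjusted p = 0.000492), called in every alternative. The D1 and D3 proteins sit in the same ring, and their transcripts were the ones that moved farthest among the called Sm genes, in opposite directions.

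Snrpe was at 83.0, 85.9 and 86.6 against 106, 122 and 116 CPM (log2 0.43, SE 0.11, edgeR adjusted p = 0.0144). Snrpb, whose product SmB is a target of lupus autoantibodies, was at 95.9, 88.7 and 83.4 against 121, 111 and 116 CPM (log2 0.38, SE 0.11, edgeR adjusted p = 0.0254). Both had non-overlapping groups, but both calls were lost without control replicate 1, 2 or 3 (Snrpe edgeR adjusted p = 0.0722, 0.0631 and 0.0596; Snrpb 0.0565, 0.0988 and 0.127). Both were also lost without OE-labelled replicate 2 (0.0694 and 0.0606), and Snrpb without OE-labelled replicate 1 (0.057). Snrpf, the SmF gene, had the widest spread: 40.6, 54.0 and 51.1 CPM in control libraries against 5.67, 11.4 and 46.5 CPM in OE-labelled ones. OE-labelled replicates 1 and 2 were far below control and replicate 3 was within its range, and the change of -1.21 (SE 0.47) did not pass (edgeR adjusted p = 0.0698). Without OE-labelled replicate 3 it was -2.49 (edgeR adjusted p = 4.98e-05) and without OE-labelled replicate 1 it was -0.82 (0.0443). Snrpd2 had 0.27 (edgeR adjusted p = 0.124, and 0.0425 without OE-labelled replicate 1). Snrpg had 53.9, 55.8 and 55.3 against 76.2, 90.4 and 57.9 CPM (log2 0.45, edgeR adjusted p = 0.0513, 0.60 with edgeR adjusted p = 0.00409 without OE-labelled replicate 3, and 0.26 with 0.275 without OE-labelled replicate 2).

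**Figure D4:**
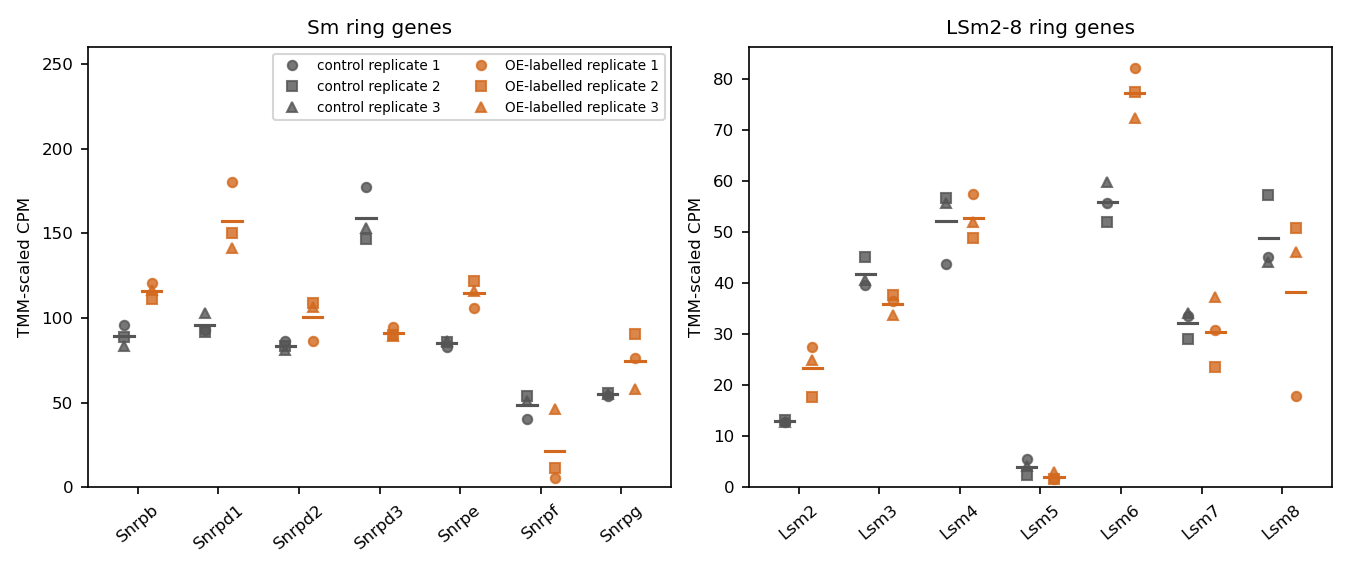
TMM-scaled CPM (y axis) of the 7 Sm ring genes and the 7 genes Lsm2 to Lsm8 (x axis) in control (grey) and OE-labelled (orange) libraries, one symbol per replicate, with bars at group means. Snrpd1 lies higher and Snrpd3 lower in OE-labelled libraries without overlap, and Snrpf runs from 5.67 to 46.5 CPM among the OE-labelled libraries.

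The U1 particle recognises the 5′ splice site. Snrpc, which encodes the C protein of that particle, at chr17:27838150-27851968 on the plus strand, had the lowest fold change of all 79 genes, with 47.9, 60.5 and 40.1 CPM in control libraries against 24.3, 19.7 and 17.8 CPM in OE-labelled ones. Every OE-labelled library was below every control library, and Snrpc was 2.40-fold lower (log2 -1.26, SE 0.19, edgeR adjusted p = 0.000664). The call held in every alternative, at edgeR adjusted p values of 0.00751 or less, and Snrpc has 1 near-identical copy. Snrpa, for the A protein of the same particle, had -0.30 (edgeR adjusted p = 0.303), running from -0.58 (0.0315) without OE-labelled replicate 1 to -0.18 (0.584) without OE-labelled replicate 2. The product of Prpf39 associates with U1 as well. Prpf39 fell from 84.3, 92.0 and 84.8 CPM to 57.9, 49.6 and 60.9 CPM (-0.63, SE 0.13, edgeR adjusted p = 0.00319), and with the GC offset it was -0.35 (0.0749).

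The U2 particle and its loading factors read the branch point and the 3′ splice site. Of 9 Sf3 genes, Sf3a2, Sf3b4 and Sf3b5 rose (33.3%, beside 16.5% of all genes tested) and none fell, beside 12.7%. The median log2 fold change was 0.14, and 0 were lower in DESeq2 or at an unadjusted edgeR p below 0.05. Sf3b4, an RNA-binding subunit of SF3b, was at 16.1, 14.5 and 14.7 CPM in control libraries against 32.8, 19.7 and 32.6 CPM in OE-labelled ones. OE-labelled replicate 2 was nearest to control, and the rise was 1.86-fold (log2 0.90, SE 0.23, edgeR adjusted p = 0.0116). Sf3a2, a core subunit of SF3a, was likewise lowest of the OE-labelled libraries in replicate 2, with 17.1, 18.3 and 19.4 against 34.4, 25.2 and 36.8 CPM (log2 0.81, SE 0.20, edgeR adjusted p = 0.00839). Sf3b5, a small SF3b subunit, was at 64.5, 74.1 and 62.7 against 81.8, 96.0 and 81.6 CPM (log2 0.37, SE 0.13, edgeR adjusted p = 0.0484). The Sf3b4 call was lost without control replicate 2 or 3 (edgeR adjusted p = 0.0511 and 0.0517), and that of Sf3a2 with the GC offset (0.0578). The Sf3b5 call was lost without each control replicate and without OE-labelled replicate 2 (edgeR adjusted p = 0.163, 0.0721, 0.185 and 0.209).

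Sf3b1, the large scaffold that clamps the branch site, was not called, at 248, 253 and 271 CPM in control libraries against 260.1, 266 and 297 CPM in OE-labelled ones (log2 0.09, edgeR adjusted p = 0.529). Sf3b2, the most abundant transcript of the snRNP class, was at 613, 567 and 558 against 580.2, 469.5 and 386 CPM. Only OE-labelled replicate 1 lay in the control range, and the change was -0.28 (edgeR adjusted p = 0.136). Without that library it was -0.49 (edgeR adjusted p = 0.000639), and without OE-labelled replicate 3 it was -0.14 (0.32). With the GC offset Sf3b2 was called lower (-0.46, edgeR adjusted p = 0.0271), the range over the alternatives being 0.000639 to 0.385. Sf3b6 had 0.35 (edgeR adjusted p = 0.0934, 0.00522 without OE-labelled replicate 1 and 0.432 without OE-labelled replicate 2), and Sf3a1, Sf3a3 and Sf3b3 lay between -0.15 and 0.14. Snrpa1, for the A′ protein of U2, rose from 35.03, 28.6 and 30.4 CPM to 40.9, 51.1 and 41.9 CPM (log2 0.51, SE 0.16, edgeR adjusted p = 0.0303). That call was lost without each control replicate and without OE-labelled replicate 2 (edgeR adjusted p = 0.0516, 0.124, 0.107 and 0.143). Snrpb2, for its B″ partner, was at 0.01.

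U2af2 encodes the large subunit of U2AF, which binds the polypyrimidine tract, and rose from 128, 115 and 114 CPM to 211, 156 and 153 CPM. OE-labelled replicate 1 was the highest, and the rise was 1.46-fold (log2 0.54, SE 0.14, edgeR adjusted p = 0.011). Without OE-labelled replicate 1 the change was 0.32 (edgeR adjusted p = 0.0265). Without control replicate 2 or 3 the edgeR adjusted p was 0.0609 and 0.0635, and with the GC offset the change was 0.37 (0.0733). Its small partner U2af1, which contacts the AG of the 3′ splice site, was not called (-0.21, edgeR adjusted p = 0.548) and has 3 near-identical copies. U2af1l4, a paralogue of the small subunit, was at 10.1, 8.44 and 8.75 against 17.4, 18.1 and 11.8 CPM (log2 0.79, SE 0.25, edgeR adjusted p = 0.0312). It overlaps Gm49396 on the same strand and Psenen on the other, and its call was lost in 9 of 19 alternatives, including without each control replicate and without OE-labelled replicates 1 or 2 (edgeR adjusted p = 0.0669, 0.108, 0.106, 0.0708 and 0.123).

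Of the 13 Prpf genes, which encode proteins of the tri-snRNP, the Prp19 complex and other steps, none rose, 4 fell and 9 were not called. The share that fell was 30.8%, beside 12.7% of all genes tested, of which 16.5% rose. None of the 13 was higher in DESeq2 or at an unadjusted edgeR p below 0.05. Their median was -0.20, 11 of the 13 were below 0, and their summed level was 1611 ± 48.1 CPM in control libraries against 1387 ± 83.0 CPM in OE-labelled ones (SD, n = 3). Among them, Prpf39, Prpf18 and Prpf38b fell. Prpf18, a factor of the later catalytic step, was at 24.0, 31.0 and 30.4 against 13.0, 16.1 and 17.3 CPM (-0.88, SE 0.20, edgeR adjusted p = 0.00633), called in every alternative. Prpf38b was at 236, 237 and 245 against 177, 155 and 177 CPM (-0.50, SE 0.10, edgeR adjusted p = 0.00393), and with the GC offset it was -0.23 (0.18). The 5 proteins of the U4/U6.U5 tri-snRNP, Prpf3, Prpf4, Prpf6, Prpf8 and Prpf31, had no call by edgeR or DESeq2 and 0 at an unadjusted edgeR p below 0.05. Prpf8, the U5 protein at the catalytic centre, was at 107, 95.7 and 103 CPM in control libraries against 61.2, 86.1 and 108 CPM in OE-labelled ones. Its values spread widely among OE-labelled libraries (-0.26, edgeR adjusted p = 0.273), and it was called lower without OE-labelled replicate 3 (-0.46, edgeR adjusted p = 0.03) but was -0.13 (0.456) without OE-labelled replicate 1. Prpf4 and Prpf4b were called lower without OE-labelled replicate 1 (edgeR adjusted p = 0.0338 and 0.0146) but were at -0.08 and 0.02 without OE-labelled replicate 3, and Prpf19, Prpf38a and Prpf40b lay between -0.01 and 0.08.

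Lsm proteins form the ring on U6 snRNA in the nucleus and, with Lsm1 in place of Lsm8, an mRNA decay ring in the cytoplasm. Of 10 Lsm genes tested, 3 rose and none fell, with a median of 0.04. Of all genes tested, 16.5% rose and 12.7% fell, and the difference of the Lsm genes from these shares was not tested. Of the 10 Lsm genes, 0 were lower in DESeq2 or at an unadjusted edgeR p below 0.05, and DESeq2 called 0 higher. Lsm2 was at 12.9, 13.1 and 12.9 against 27.6, 17.7 and 24.9 CPM (log2 0.84, SE 0.22, edgeR adjusted p = 0.0136). Lsm6 was at 55.8, 52.1 and 59.9 against 82.2, 77.5 and 72.3 CPM (log2 0.47, SE 0.12, edgeR adjusted p = 0.0146), and it has 4 near-identical copies. Lsm10, part of the U7 particle that processes histone mRNA, was at 19.8, 21.6 and 23.5 against 32.4, 32.2 and 29.2 CPM (log2 0.53, SE 0.17, edgeR adjusted p = 0.0309). The groups did not overlap for these 3 genes. Without each control replicate in turn, Lsm2 gave edgeR adjusted p values of 0.0525, 0.0503 and 0.0548, and Lsm10 gave 0.118, 0.0949 and 0.0643. Lsm10 also lost its call without OE-labelled replicates 1 or 2 (edgeR adjusted p = 0.0708 and 0.0989), and Lsm6 without control replicates 1 or 2 or OE-labelled replicate 2 (0.0624, 0.0832 and 0.0561).

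The subunits that distinguish the nuclear and cytoplasmic rings were not called. Lsm8 was at 45.2, 57.2 and 44.2 against 17.8, 50.7 and 46.1 CPM, low only in OE-labelled replicate 1 (-0.35, edgeR adjusted p = 0.366). Lsm1 was at 13.4, 8.91 and 11.1 against 10.5, 13.0 and 16.9 CPM (log2 0.27, edgeR adjusted p = 0.46). Lsm3, Lsm4, Lsm7, Lsm11 and Lsm12 lay between -0.24 and 0.07, and the remaining Snrp gene, Snrpn, had 0.43 (edgeR adjusted p = 0.163). Lsm5 did not pass the filter, with 12, 5 and 9 counts in control and 4, 4 and 7 in OE-labelled libraries. Nor did the processed pseudogene Snrpert, with 4, 4 and 2 against 0, 12 and 9 counts, and Snrp1c-ps1 and Snrp1c-ps2 had 0 counts throughout.

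Counts per gene do not separate isoforms, and many SR and hnRNP genes carry alternative exons that send their transcripts to decay, so isoform use was not measured. Of the 79 genes, 14 overlap another gene on the same strand, 28 overlap one on the opposite strand, and 14 have a near-identical copy of the 3′ end in another annotated gene. The called genes with such a copy were Hnrnpk, Hnrnpa3, Snrpc, Snrpd1, Snrpe, Lsm6 and U2af1l4. The called genes with a same-strand overlap were Hnrnpk, Hnrnpa3, Hnrnpul2, Hnrnpm, Prpf39, Sf3b4, Snrpa1 and U2af1l4. How the authors' counting treated strand and shared reads is not given in the sources used here.

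Promoters were read for 70 of the 86 genes from RefSeq (GRCm38.p6, 250 bases before to 50 after each start). The E-box CACGTG, the palindromic site that MYC and MAX bind, reads alike on both strands. It was present in the promoters of 9 of the 70 (12.9%), beside 2187 of the 27025 genes with a RefSeq promoter (8.09%). These 27025 outnumber the 10687 tested genes, so they include genes that did not pass the count filter. Shares among the tested genes alone were not computed. The E-box was in 4 of 11 genes that fell (36.4%), 0 of 11 that rose and 5 of 45 tested without a call (11.1%). The 4 were Hnrnpa3, Hnrnpm, Hnrnpd and Prpf39. The ETS-type motif CCGGAAG, searched on both strands, was in 21 of the 70 (30%), beside 9.93% of the same 27025 genes. It was in 2 of 11 that rose, 3 of 11 that fell and 15 of 45 tested without a call (33.3%). The stretches around the E-box of 3 genes that fell are shown because the motif was seen among such genes. They run 5′ to 3′ on the gene's strand with the E-box in capitals, at chr2:75659211-75659276 (plus) for Hnrnpa3, chr5:99978935-99979000 (minus) for Hnrnpd and chr12:65036261-65036326 (plus) for Prpf39.
Hnrnpa3: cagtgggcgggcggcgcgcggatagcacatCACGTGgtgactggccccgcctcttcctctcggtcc
Hnrnpd: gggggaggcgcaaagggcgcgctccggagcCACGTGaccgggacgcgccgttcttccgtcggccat
Prpf39: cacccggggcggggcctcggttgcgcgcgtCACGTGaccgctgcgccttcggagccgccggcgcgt
The E-box begins 18, 32 and 43 bases before the start site in these promoters. That of Hnrnpm is not printed because it lies 13 bases after the start, within transcribed sequence. A match of letters is a description of the sequence and not evidence of binding.

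Genes around this machinery were read from the same fit, in lists written from general knowledge of splicing. Of 114 tested genes in 4 such lists, 11 rose and 33 fell (38.6% called, beside 29.2% of all genes tested), with a median of -0.17 beside 0.04 for all genes. Shares of the single lists below can be read against the 16.5% of all genes that rose and the 12.7% that fell. Of 57 other spliceosome genes, 6 rose and 15 fell, with a median of -0.10. Puf60, which helps U2AF at the 3′ splice site, rose, with a mean of 158 ± 7.90 CPM in control and 285 ± 26.8 CPM in the OE-labelled group (SD, n = 3; log2 0.85, edgeR adjusted p = 0.000268). Ddx42, a helicase that associates with SF3b, fell, with a mean of 102 ± 11.3 CPM in control and 53.5 ± 2.38 CPM in the OE-labelled group (SD, n = 3; -0.93, edgeR adjusted p = 0.000376). Phf5a, a further SF3b subunit named after its values were seen, rose, with a mean of 93.7 ± 7.33 CPM in control and 192 ± 41.0 CPM in the OE-labelled group (SD, n = 3; log2 1.03, edgeR adjusted p = 0.000536).

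Of 9 tested genes for SR protein kinases and import, none rose and 3 fell, with a median of -0.30, and 0 were higher in DESeq2 or at an unadjusted edgeR p below 0.05. Clk4, a kinase that phosphorylates SR proteins in the nucleus, fell, with a mean of 72.5 ± 3.12 CPM in control and 34.1 ± 8.41 CPM in the OE-labelled group (SD, n = 3; -1.09, edgeR adjusted p = 0.000637). Its relative Clk1 fell by 0.50 on the log2 scale (edgeR adjusted p = 0.0121), and with the GC offset it was -0.25 (0.168). The cytoplasmic SR kinase Srpk1 was not called (-0.30, edgeR adjusted p = 0.112). Of 39 other RNA-binding splicing regulators, 4 rose and 12 fell, with a median of -0.22. Pcbp1 and Pcbp2, KH-domain binders of poly(C) related to HNRNPK, rose by 0.66 and 0.83 on the log2 scale (edgeR adjusted p = 0.000517 and 0.00083), the same direction as Hnrnpk. Of 9 exon junction complex genes, 1 rose and 3 fell, with a median of -0.20, and Rnps1 and Pnn, which join SR proteins on spliced mRNA, fell by 1.01 and 0.66 on the log2 scale (edgeR adjusted p = 0.000782 and 0.00248).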

How the data were processed

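Total RNA of 6 Apc-knockout mouse intestinal organoid libraries was column-purified and 500 ng went into QuantSeq 3′ forward libraries, per the labels' protocols. The authors deposited estimated counts per gene, not normalized, for 52249 genes; the submitters' processing notes name STAR, HTSeq and the builds mm10 and GRCm38. Of the values above 0, 2843 (3.09%) were fractional and were rounded, although the plan assumed whole counts. Groups and replicate numbers came from the titles.

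OE-labelled and control libraries were compared over all 6 libraries by edgeR 4.0.16 (R 4.3.3) with its quasi-likelihood test, TMM scaling and filterByExpr. P-values were adjusted by Benjamini-Hochberg over 10687 genes, with calls below 0.05. CPM are TMM-scaled, and the 3-count floors cover counting error only. GENCODE M21 gave position, GC content and overlaps. Near-identical copies were sought only among its transcripts, at no less than 95% identity over at least 100 bases with the last 300 bases of a coding transcript. Fits were also run on simulated counts in which a small share of genes was changed and no GC trend was added. Those runs do not cover the GC relation seen here, and their outcome is not given.

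Members, lists and tests were chosen with earlier results of these data known. Named were, per class, the 4 smallest p among calls in each direction, the 2 most counted members, 17 genes fixed by role and, of each other list, the 2 smallest p among calls; any further gene was picked once its values were known. One gene selected by the rule is counted in its class but not reported here. Alternatives were DESeq2 1.42.0 and its size factors, library totals, limma-voom (limma 3.58.1) with quality weights, other filters and gene sets, GC and length offsets (loess, span 0.5), equal depth, a replicate block, each library left out, and a threshold of 0.01. An exact permutation test of 3 against 3 cannot give a two-sided p below 0.1, so none was used.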

Additional observations from a re-analysis of the deposited data

How the results depend on the processing

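Of 20 alternatives for each of 34 named genes, 585 of 680 values kept direction and side of the threshold, 60 lost the call, 9 gained one and 26 changed sign; 12 genes kept their verdict throughout. The 16 higher calls became 7 with DESeq2, 5 at a threshold of 0.01 and 5 to 17 with 1 library left out. Over all genes tested, the 1765 higher calls became 1059 with DESeq2, 1360 with the GC offset and 1033 to 1959 with 1 library left out. The 14 lower calls became 8 with the GC offset, 9 with the replicate block and GC offset, and 10 to 23 with 1 library left out. Those of all genes, 1353, became 1037 with DESeq2 and 1096 with the GC offset. With the replicate block and GC offset they were 1258, and with 1 library left out 715 to 1731. By class, DESeq2 called 4 snRNP-class genes higher and 6 lower (12 and 6 by edgeR), and with the GC offset 0 SR and 4 hnRNP genes were lower (2 and 6 before) and 1 hnRNP gene higher (3 before). The hnRNP median (-0.33) was -0.14 with the GC offset, -0.15 with the replicate block and GC offset and -0.483 to -0.299 with 1 library left out. The SR median (-0.09) was -0.254 to -0.053 with 1 library left out. The snRNP median (0.02) was -0.024 with DESeq2 or its size factors, 0.066 with library totals, -0.015 without a count filter, 0.078 with the length offset, -0.04 without mitochondrial genes and the abundant ribosomal RNA gene, -0.043 with protein-coding genes only and -0.063 to 0.043 with 1 library left out. Hnrnpa1 (0.03) was -0.023 with DESeq2 size factors, -0.021 with DESeq2, -0.019 without a filter, -0.19 with limma-voom, -0.11 with the length offset, -0.033 without mitochondrial genes, -0.035 with protein-coding genes only and -0.76 to 0.39 with 1 library left out. Srsf1 (-0.08) was 0.003 with limma-voom, 0.145 with the GC offset, 0.11 with the replicate block and GC offset and -0.26 to 0.13 with 1 library left out. Srsf3 (-0.01) was 0.042 with library totals, 0.229 with the GC offset alone or beside the replicate block, 0.115 with the length offset and -0.09 to 0.039 with 1 library left out. Tra2b was 0.095 with the GC offset and 0.094 with the replicate block added and U2af1 ran from -0.494 to 0.015 with 1 library left out. The causes were not tested. Over all genes, 1765 higher and 1353 lower calls became 1033 and 715 without control replicate 3. Depth limits the low genes most: Lsm5 and Snrpert could not be tested.

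Whether equal replicate numbers pair the libraries was not settled, because low correlations cannot exclude shared cultures. Deviations of same-numbered libraries correlated across genes at 0.10, 0.02 and 0.07, and those of differently numbered libraries at -0.11 to 0.04. Control replicate 2 correlated best with OE-labelled replicate 3 (0.04). With the replicate number as a replicate block, 17 genes were higher and 14 lower, of which 16 and 13 were also called without it; Snrpg (edgeR adjusted p = 0.0478) and Snrpf (0.0122) gained a call, and Hnrnpa1 was -0.16.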
